A study of Mus musculus with 7 samples.

Results

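The replication-dependent histone genes of mouse were followed in RNA-Seq data of whole fetal testes. The members were all rows of the deposited RefSeq gene table whose symbol starts with Hist1h, Hist2h, Hist3h or Hist4h, which gave 75 of 24739 rows, under 68 symbols. The 7 libraries came from C57BL/6 embryos at E14.5, with 1 pair of testes from 1 embryo per library. There were 3 wild-type (WT) libraries and 4 libraries of embryos homozygous for the Glis3 zf5 allele, in which exon 4 of Glis3 and stretches of both neighbouring introns are deleted in every cell of the embryo (Mutant; n = 3 and n = 4). Ribosomal RNA was removed from total RNA and reverse transcription was started from random primers, with no selection on poly-A tails. Values are FPKM, fragments scaled by the authors to transcript length and library size. This scaling is less certain for genes as short as the fragments sequenced, so levels of different genes are compared only roughly.

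The core histones H2A, H2B, H3 and H4 form the protein spool of the nucleosome, and linker histone H1 binds the DNA between spools. Replication-dependent histone genes lie in clusters, lack introns as a rule and are transcribed mainly in S phase, when new chromatin is built. Their mRNAs end in a conserved stem-loop that is bound by SLBP, the stem-loop binding protein, in place of a poly-A tail, so a library without poly-A selection is suited to measure them. Replication-independent variants such as H3.3 and H2A.Z are as a rule made throughout the cell cycle from polyadenylated mRNAs.

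By type the 75 rows were 6 H1, 22 H2A, 19 H2B, 14 H3 and 14 H4 genes. The Hist1 cluster held 57 rows in 2 blocks of chromosome 13, chr13:21715713-22043658 with 26 rows and chr13:23531044-23934913 with 31 rows (mm10). The Hist2 cluster held 14 rows at chr3:96219916-96270192 and the Hist3 cluster 3 rows at chr11:58948911-58955192, while Hist4h4 stood alone at chr6:136803993-136804431. The median span of a member was 488 bases, and 69 of the 75 rows spanned under 1000 bases. Along these clusters 11 pairs of members stood head to head, with 172 to 607 bases between their starts, and 10 of the 11 pairs joined an H2A gene with an H2B gene.

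The stem-loop was searched in the bases after the stop codon of the GENCODE M21 transcripts (GRCm38, the same assembly as mm10). It was found in 44 of 67 members with a transcript model, and in 42 of the 46 whose model runs at least 60 bases past the stop codon. It lay 21 to 58 bases after the stop codon. The same pattern was found in 13 of 21610 other protein-coding genes (0.0602%). In 41 of 44 members compared, the RefSeq gene model ended within 10 bases of the end of the stem-loop. The 44 members held 6 different stem-loops, shown here by their most abundant gene because they are the 3′ end that these members share. The stem is in capitals, with 5 flanking bases on each side. They are those of Hist1h1d (chr13:23555782-23555807, plus strand, shared by 26 members), Hist1h2bb (chr13:23747198-23747223, plus strand, 6 members), Hist2h2ac (chr3:96220413-96220438, minus strand, 1 member), Hist1h4h (chr13:23531453-23531478, plus strand, 7 members), Hist1h4b (chr13:23757361-23757386, plus strand, 2 members) and Hist1h4i (chr13:22040961-22040986, minus strand, 2 members).
Hist1h1d: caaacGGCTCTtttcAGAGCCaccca
Hist1h2bb: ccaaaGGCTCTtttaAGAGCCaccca
Hist2h2ac: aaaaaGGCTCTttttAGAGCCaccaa
Hist1h4h: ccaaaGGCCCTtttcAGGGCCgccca
Hist1h4b: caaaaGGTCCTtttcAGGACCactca
Hist1h4i: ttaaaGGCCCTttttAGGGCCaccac
The first 3 stem-loops were found in H1, H2A, H2B and H3 genes, and the last 3 were found in H4 genes.

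The promoters (250 bases before to 50 after the start, RefSeq, GRCm38.p6) matched 62 of the 68 gene identifiers, with 63 promoters. The CCAAT box, CCAAT on either strand, stood in all promoters of the H1, H2A, H2B and H3 genes, 6, 18, 17 and 10 in number, but in 3 of 12 H4 promoters (25.0%), against 37.4% of all 32851 promoters. The octamer ATTTGCAT stood in 7 of 18 H2A and 7 of 17 H2B promoters and in no H1, H3 or H4 promoter, against 1.74% of all. The H1 box AAACACA stood in 5 of 6 H1 promoters (7.18% of all) and the TATA box TATAAA in 35 of the 63 promoters (13.6% of all). A further motif, GGTCCG, known from the proximal element of H4 promoters and added after the sequences had been seen, stood in 11 of 12 H4 promoters, in 1 H2B and 1 H3 promoter and in 8.25% of all promoters. Both strands were searched, overlaps between motifs were allowed, and a match describes letters and not a bound site. The promoters of 5 genes to which the values below return are shown, with these motifs in capitals on either strand: Hist1h1d (chr13:23554782-23555081, plus strand), Hist1h2ad (chr13:23574131-23574430, plus strand), Hist1h2bb (chr13:23746484-23746783, plus strand), Hist1h4h (chr13:23530794-23531093, plus strand) and Hist4h4 (chr6:136804382-136804681, minus strand).
Hist1h1d: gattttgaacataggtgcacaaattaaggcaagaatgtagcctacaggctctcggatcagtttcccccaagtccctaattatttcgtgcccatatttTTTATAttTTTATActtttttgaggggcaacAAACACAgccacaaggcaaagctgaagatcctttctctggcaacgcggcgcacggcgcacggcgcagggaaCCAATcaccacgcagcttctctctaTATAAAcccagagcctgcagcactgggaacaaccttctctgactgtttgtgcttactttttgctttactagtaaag
Hist1h2ad: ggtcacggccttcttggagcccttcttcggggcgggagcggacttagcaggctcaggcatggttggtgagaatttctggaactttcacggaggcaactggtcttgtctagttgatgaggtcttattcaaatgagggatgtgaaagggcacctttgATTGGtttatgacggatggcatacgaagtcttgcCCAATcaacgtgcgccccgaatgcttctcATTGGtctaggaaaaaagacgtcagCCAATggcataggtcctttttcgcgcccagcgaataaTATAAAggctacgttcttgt
Hist1h2bb: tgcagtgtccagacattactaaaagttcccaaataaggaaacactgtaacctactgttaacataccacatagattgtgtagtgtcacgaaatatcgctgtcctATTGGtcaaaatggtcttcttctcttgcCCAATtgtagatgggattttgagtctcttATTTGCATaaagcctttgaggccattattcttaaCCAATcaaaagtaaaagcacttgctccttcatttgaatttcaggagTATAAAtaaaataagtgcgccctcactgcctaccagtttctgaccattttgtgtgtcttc
Hist1h4h: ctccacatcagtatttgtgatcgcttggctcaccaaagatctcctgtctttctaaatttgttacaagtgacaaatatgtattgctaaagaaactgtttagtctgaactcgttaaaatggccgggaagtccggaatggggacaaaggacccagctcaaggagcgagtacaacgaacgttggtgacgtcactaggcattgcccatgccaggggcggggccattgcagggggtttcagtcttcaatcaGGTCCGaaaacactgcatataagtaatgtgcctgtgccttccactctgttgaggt
Hist4h4: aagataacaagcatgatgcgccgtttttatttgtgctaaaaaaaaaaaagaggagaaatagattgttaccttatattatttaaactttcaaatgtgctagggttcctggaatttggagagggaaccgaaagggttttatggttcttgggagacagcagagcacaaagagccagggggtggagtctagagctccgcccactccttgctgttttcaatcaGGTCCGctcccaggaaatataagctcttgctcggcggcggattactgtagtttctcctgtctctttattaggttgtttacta

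The libraries were checked against their labels first. The level of Glis3, the targeted gene, was 7.63 FPKM in wild-type replicate 1 and 6.89 in replicate 2. The library labelled wild-type replicate 3 had 2.91 FPKM and the 4 mutant libraries 2.66 to 3.87. The germ cell list (12 genes, Ddx4 and Dazl among them) had a mean log2(FPKM + 0.5) of 5.63 in wild-type replicate 1 and 5.65 in replicate 2. In replicate 3 it was 4.04, and mutant libraries had 3.78 to 4.48. Results are therefore given with and without that library. Markers of Sertoli and fetal Leydig cells were present in all 7 libraries, as befits whole testis. In such bulk tissue, fewer cells of a type and less RNA per cell cannot be told apart. The table gives no fragment counts, so the depth behind a value is unknown. Over all 13988 genes tested, the median difference between mutant and wild-type was 0.01 on the log2 scale.

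By FPKM, histone genes were among the abundant transcripts of these testes. Of the 75 rows, 65 passed the filter of a mean of at least 0.5 FPKM, 53 had a mean over 100 FPKM and 19 over 1000 FPKM. The 10 rows under the filter were Hist1h2bq, Hist1h2br, the plus-strand row of Hist1h4n, the minus-strand row of Hist2h2aa1, and both rows each of Hist2h2aa2, Hist2h3c1 and Hist2h3c2. The coding sequence of each of these genes is identical to that of another member, so reads inside it cannot be assigned to 1 copy by sequence, and 2 of them were listed at 0 in every library. H4 genes made up 42.3% to 45.9% of the summed FPKM of all members, H2B genes 21.5% to 24.6%, H3 genes 11.4% to 13.9%, H2A genes 9.85% to 10.9% and H1 genes 9.06% to 10.4%. The shares of the types thus varied little between libraries. Differences in level between types are approximate, because the genes are short and many share reads. The Hist1 cluster carried 86.6% to 89.8% of the sum.

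The summed level of the 75 members in FPKM was 39081, 44569 and 61833 for wild-type and 56085, 60590, 60986 and 66244 for mutant libraries, in the order of their replicate numbers. Wild-type replicates 1 and 2 were the lowest of the 7 libraries, and the library labelled wild-type replicate 3 lay inside the range of the mutant libraries. On average it was 48495 ± 11870 (SD, n = 3) in wild-type and 60976 ± 4156 (SD, n = 4) in mutant libraries, a ratio of 1.26 of mutant to wild-type, and 1.46 without wild-type replicate 3. The types were much alike in this. For H2A the sums were 3875, 4525 and 6476 FPKM in wild-type and 6109, 6487, 6399 and 6528 in mutant libraries. For H4 they were 17951, 18868 and 27288 FPKM in wild-type and 24425, 26501, 27603 and 30163 in mutant libraries. In each of the 5 types the first 2 wild-type libraries were below the other 5. For H3 the library labelled wild-type replicate 3 was the highest of all, at 8592 FPKM against 7123 to 8116 in mutant libraries. The ratio lay between 1.19 for H3 and 1.29 for H2A, or between 1.33 for H1 and 1.52 for H2A without wild-type replicate 3. No test was made on sums over the members.

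**Figure D1:**
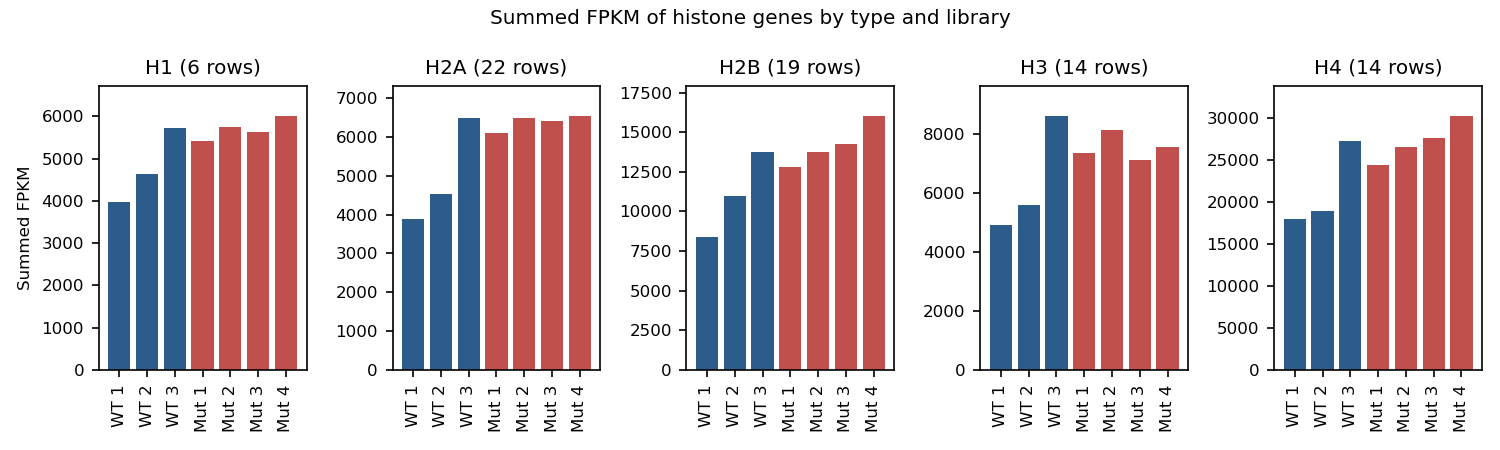
Summed FPKM (y axis, from 0) of the H1, H2A, H2B, H3 and H4 genes in each of the 7 libraries, wild-type (WT) in blue and mutant (Mut) in red. In every panel WT 1 and WT 2 are the lowest bars, and WT 3 stands among the mutant libraries, except for H3, where it is the highest bar.

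Gene by gene, 61 of the 65 members tested had a log2 fold change (mutant minus wild-type) above 0, against 52.1% of all genes tested, and the median was 0.35. With limma on log2(FPKM + 0.5) and Benjamini-Hochberg adjustment over all genes, 0 members passed an adjusted p of 0.05, as did 0.00715% of all genes (1 of 13988). The lowest adjusted p of a member was 0.18, for Hist1h2ad. At an unadjusted p under 0.05 there were 23 members higher in mutant libraries, against 8.21% of all genes, and 0 lower, against 8.79%. The libraries of both groups did not overlap in 8 members, all higher in the mutant, against 7.31% of all genes, and in 0 members lower in the mutant, against 7.59%. The minus-strand row of Hist1h4n passed the filter only through its mutant libraries, so it had to differ. Without it there were 22 of 64 members at an unadjusted p under 0.05 and 7 of 64 (10.9%) without overlap. The library labelled wild-type replicate 3 was at or above the lowest mutant library in 54 of 65 members and above the mutant mean in 44. These counts were not taken over all genes tested, so they do not set the members apart.

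Wild-type replicates 1 and 2 were the lowest pair of the 7 libraries in 48 of 65 members (73.8%), against 11.3% of all genes tested. Replicate 1 was the lowest library in 46 members and replicate 2 in 12. The median deviation of the members from their mean over the 7 libraries on the log2 scale was −0.47 in wild-type replicate 1, −0.29 in replicate 2 and 0.22 in replicate 3. The mutant libraries had 0.07, 0.17, 0.18 and 0.24. Without wild-type replicate 3, 63 of 65 members were higher in the mutant, with a median of 0.56, and 24 passed an adjusted p of 0.05 in limma, all higher, against 1.16% of all genes higher and 3.99% lower. In that fit 51 members had an unadjusted p under 0.05 and were higher, against 10.5% of all genes.

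**Figure D2:**
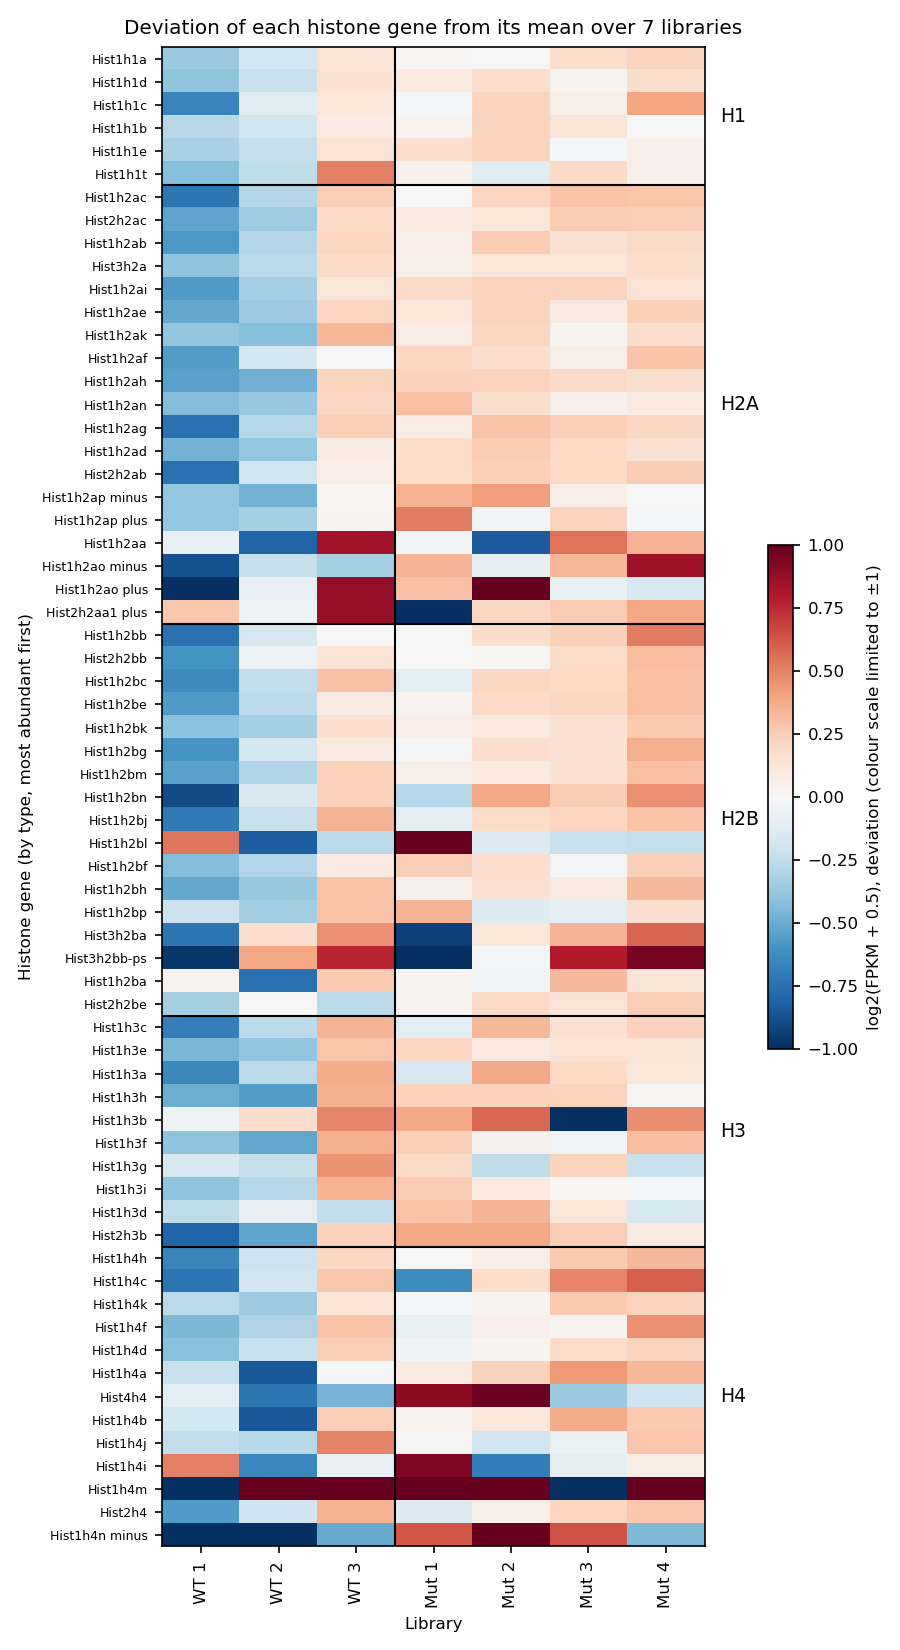
Deviation of log2(FPKM + 0.5) from the gene's mean over 7 libraries for each of the 65 histone genes tested (rows, by type and by mean level) in each library (columns), with the colour scale limited to ±1. The columns WT 1 and WT 2 are mostly blue (low) and the other 5 mostly red (high), with a few rows such as Hist4h4, Hist1h4m and Hist1h3b that go their own way.

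The linker histones varied least, with a median ratio of highest to lowest library of 1.5, against 1.72 for H2A, 1.87 for H3, 1.92 for H2B and 2.15 for H4 (members with a mean of at least 20 FPKM). All 6 H1 genes were higher in the mutant, with log2 fold changes of 0.10 to 0.39 and a median of 0.24, and none had an unadjusted p under 0.05. Quantile normalization lowered Hist1h1b to 0.014, Hist1h1a to 0.045, Hist1h1d to 0.13 and Hist1h1c to 0.22. The most abundant was Hist1h1a, encoding H1.1, at 1506, 1741 and 2134 FPKM in wild-type and 1964, 1961, 2202 and 2272 FPKM in mutant libraries. Its groups overlapped, because wild-type replicate 3 exceeded the first 2 mutant libraries (log2 fold change 0.24 ± 0.14 SE, adjusted p = 0.412 in limma; exact two-sided permutation p = 0.114). Hist1h1d (H1.3), whose promoter and stem-loop are shown above, was at 986, 1119 and 1440 FPKM in wild-type and 1397, 1469, 1328 and 1469 FPKM in mutant libraries. Here too wild-type replicates 1 and 2 were the lowest libraries and replicate 3 lay among the mutants (0.28 ± 0.13 SE, adjusted p = 0.333 in limma). Hist1h1c (H1.2) had the widest difference of the type, 0.39 ± 0.18 SE, Hist1h1e (H1.4) had 0.25 ± 0.12 and Hist1h1b (H1.5) 0.22 ± 0.11. Hist1h1t, the linker histone known from spermatocytes, was the lowest H1 gene, at 22.9, 25.9 and 44.2 FPKM in wild-type and 28.5 to 35.5 FPKM in mutant libraries. Its highest library was wild-type replicate 3, and its difference of 0.10 ± 0.20 SE did not pass the test (adjusted p = 0.831 in limma). Without wild-type replicate 3 no H1 gene passed an adjusted p of 0.05. All 6 had an unadjusted p under 0.05 in that fit, against 10.5% of all genes.

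H2A genes gave most of the calls. Of 19 tested, 18 were higher in the mutant, and the median was 0.42. Of the 18, 13 had an unadjusted p under 0.05, against 8.21% of all genes. Without wild-type replicate 3 the median was 0.61 and 14 passed an adjusted p of 0.05, against 1.16% of all genes. The member with the lowest p was Hist1h2ad (chr13:23574381-23574915), at 149.9, 159 and 219.9 FPKM in wild-type and 235, 249, 239.5 and 231 FPKM in mutant libraries. All mutant libraries stood above all wild-type libraries, by a narrow margin for replicate 3 (log2 fold change 0.46 ± 0.12 SE, adjusted p = 0.18 in limma; exact permutation p = 0.0286, the smallest this design allows). Without wild-type replicate 3 the difference was 0.62 ± 0.07 SE with an adjusted p of 0.00636 in limma, and over all alternatives the adjusted p reached up to 0.582. Hist1h2af and Hist1h2ai were likewise without overlap, with 0.42 ± 0.13 SE and 0.45 ± 0.14 SE. In Hist1h2ad 100% of the stretches of read length in the coding sequence are shared with another member. The share is 62.1% in Hist1h2af and 80.3% in Hist1h2ai, and its median over the H2A genes is 71.95%. Single values of such genes depend in part on how shared reads were divided. In the Hist2 cluster Hist2h2ab was at 62.6, 92.6 and 110.5 FPKM in wild-type and 119.5, 124, 121 and 126 FPKM in mutant libraries, with no overlap (0.50 ± 0.16 SE, adjusted p = 0.206 in limma). The coding sequence of Hist2h2ab shares no stretch of read length with another member. The 2 most abundant H2A genes, Hist1h2ac and Hist2h2ac, had means of 711 ± 241 and 719 ± 195 FPKM in wild-type (SD, n = 3) and 937 ± 84.4 and 931 ± 56.4 FPKM in mutant libraries (SD, n = 4). Both overlapped between groups, with 0.45 ± 0.20 SE and 0.40 ± 0.16 SE. The minus-strand row of Hist1h2ao, a copy at 1.31 to 5.47 FPKM, was also without overlap (0.83 ± 0.23 SE), but its coding sequence is identical to that of Hist1h2ap. The plus-strand row of Hist2h2aa1, at 0.00181 to 3.02 FPKM, was the H2A row below 0 (−0.64 ± 0.54 SE).

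H2B genes followed the same order of libraries. Of 17 tested, 16 were higher in the mutant, and the median was 0.34, or 0.53 without wild-type replicate 3. Of the 16, 6 had an unadjusted p under 0.05, against 8.21% of all genes. In the fit without wild-type replicate 3, 5 passed an adjusted p of 0.05, against 1.16% of all genes. The most abundant was Hist1h2bb (chr13:23746734-23747223), whose promoter holds the octamer, at 1746, 2628 and 2929 FPKM in wild-type and 2922, 3311, 3461 and 4183 FPKM in mutant libraries. Its wild-type replicate 3 and mutant replicate 1 were level (0.53 ± 0.20 SE, adjusted p = 0.249 in limma; exact permutation p = 0.0857). Hist2h2bb, the next, was at 1675, 2457 and 2785 FPKM in wild-type and 2522, 2548, 2876 and 3125 FPKM in mutant libraries, with an overlap of both groups (0.29 ± 0.19 SE). Hist2h2be was low, at 5.19, 6.63 and 5.46 FPKM in wild-type and 6.79 to 8.01 FPKM in mutant libraries, without overlap (0.35 ± 0.10 SE, adjusted p = 0.186 in limma). In Hist2h2be the library labelled wild-type replicate 3 stayed with the other wild-type libraries, unlike in most members, and the difference without it was 0.32.

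The testis-specific pair Hist1h2aa (TH2A) and Hist1h2ba (TH2B), which germ cells use in meiosis, stands head to head with 305 bases between the starts. Hist1h2aa was at 6.32, 3.63 and 12.4 FPKM in wild-type and 6.55, 3.54, 9.99 and 8.63 FPKM in mutant libraries. Hist1h2ba was at 9.2, 5.14 and 10.8 FPKM in wild-type and 9.15, 8.82, 11.4 and 9.87 FPKM in mutant libraries. Both groups overlapped in both genes, and the differences of 0.02 ± 0.42 SE and 0.27 ± 0.22 SE did not pass the test (adjusted p = 0.987 and 0.56 in limma). Over all 11 head-to-head pairs, the partners' log2 fold changes differed by a median of 0.13, against 0.17 between any 2 members tested.

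Of 10 H3 genes tested, 8 were higher and 2 lower in the mutant, and the median was 0.33, or 0.58 without wild-type replicate 3. Of the 8, 2 had an unadjusted p under 0.05, against 8.21% of all genes. In the fit without wild-type replicate 3, 5 passed an adjusted p of 0.05, against 1.16% of all genes. Hist1h3c, the most abundant, was at 1097, 1470 and 2226 FPKM in wild-type and 1628, 2219, 1951 and 2060 FPKM in mutant libraries. Its wild-type replicate 3 was the highest of all 7 libraries (0.35 ± 0.23 SE, adjusted p = 0.458 in limma). Hist1h3e was at 966, 1005 and 1600 FPKM in wild-type and 1419 to 1529 FPKM in mutant libraries, again with wild-type replicate 3 on top (0.34 ± 0.17 SE). Without that library Hist1h3e differed by 0.57 ± 0.09 SE with an adjusted p of 0.0181 in limma (up to 0.672 over all alternatives). Hist1h3b had a fitted difference of −0.37 ± 0.59 SE, which rested on mutant replicate 3 at 122 FPKM, against 488 to 749 FPKM in the other 6 libraries, and was 0.26 without it. The other H3 gene below 0 was Hist1h3g, at −0.03 ± 0.19 SE.

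By FPKM the most abundant members were H4 genes. All 13 H4 rows tested were higher in the mutant, with a median of 0.37, or 0.60 without wild-type replicate 3. An unadjusted p under 0.05 was found for 2 of them, or 1 of 12 without the minus-strand row of Hist1h4n. The latter is near the 8.21% of all genes. Without wild-type replicate 3 none passed an adjusted p of 0.05 and 8 had an unadjusted p under 0.05, against 10.5% of all genes. The most abundant member of all was Hist1h4h (chr13:23531044-23531478), whose promoter holds the H4 motif but neither a CCAAT nor a TATA box, at 2862, 3928 and 5208 FPKM in wild-type and 4536, 4744, 5431 and 5665 FPKM in mutant libraries. The groups overlapped through wild-type replicate 3 (0.39 ± 0.21 SE, adjusted p = 0.39 in limma; exact permutation p = 0.114). Hist1h4c, the next, was at 2137, 3115 and 4275 FPKM in wild-type and 2286, 4019, 4973 and 5372 FPKM in mutant libraries. Here mutant replicate 1 stood next to wild-type replicate 1 at the low end (0.37 ± 0.33 SE). Hist1h4a was at 1541, 999 and 1768 FPKM in wild-type and 1905, 2108, 2421 and 2263 FPKM in mutant libraries, without overlap (0.63 ± 0.19 SE, adjusted p = 0.196 in limma; exact permutation p = 0.0286). In Hist1h4a 61.2% of the stretches of read length in the coding sequence are shared with another member. The minus-strand row of Hist1h4n, a copy at 0 to 0.275 FPKM in wild-type and 0.307 to 3.72 FPKM in mutant libraries, had the largest fitted difference, 1.61 ± 0.48 SE. This value depended on the pseudocount, with 3.03 at 0.1 and 1.11 at 1, and its coding sequence is identical to that of Hist1h4m. Rows of this kind are uncertain, since the reads of a copy depend on how the authors' program divided them.

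**Figure D3:**
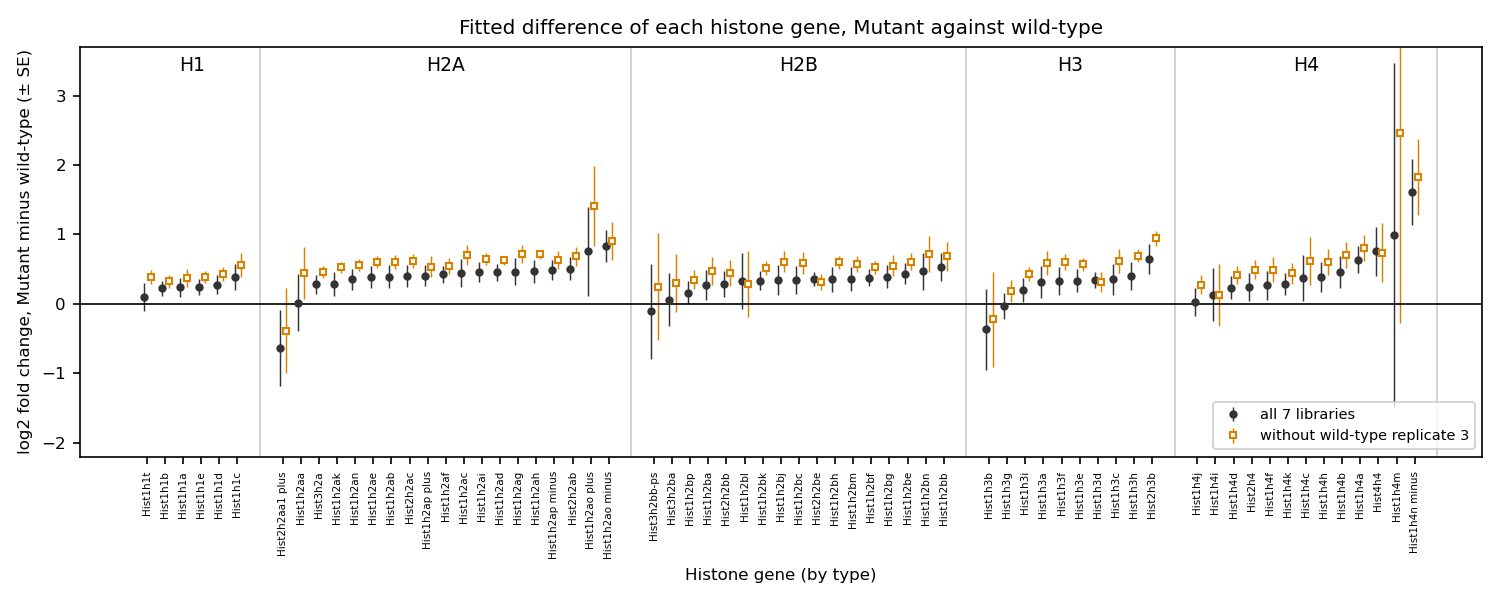
Log2 fold change (mutant minus wild-type, ± SE from limma) of the 65 histone genes tested, by type, with all 7 libraries (filled circles) and without wild-type replicate 3 (open squares); the upper bar of Hist1h4m is cut off by the axis. Most circles lie between 0.2 and 0.5 and most squares above them.

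Hist4h4 (chr6:136803993-136804431), the lone H4 gene of chromosome 6, did not follow the clusters. It was at 1406, 921 and 1096 FPKM in wild-type and 2818, 2998, 1173 and 1314 FPKM in mutant libraries. Mutant replicates 1 and 2 stood above all other libraries, while mutant replicates 3 and 4 lay inside the wild-type range. The difference over all libraries was 0.76 ± 0.35 SE (adjusted p = 0.32 in limma; exact permutation p = 0.229), and it was 0.14 with mutant replicates 1 and 2 both left out, a choice made after seeing the data. The library labelled wild-type replicate 3 changed it little, with 0.74 ± 0.42 SE without that library.

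A few other members had library patterns of their own. Hist1h4m was at 0.789 FPKM in wild-type replicate 1 and 1.86 FPKM in mutant replicate 3, against 370 to 524 FPKM in the other 5 libraries. The coding sequence of Hist1h4m is identical to that of Hist1h4n, and how the reads of both were divided was not tested. Hist1h2bl was at 409 and 627 FPKM in wild-type replicate 1 and mutant replicate 1, against 159 to 258 FPKM in the other 5 libraries. The same pair of libraries was highest for Hist1h4i, at 760 and 1022 FPKM against 331 to 564 FPKM, and lowest for Hist3h2ba, at 37.9 and 32.6 FPKM against 67.7 to 94.0 FPKM. In Hist3h2bb-ps, a pseudogene beside Hist3h2a, it was lowest as well, at 19.5 and 9.97 FPKM against 38.1 to 74.9 FPKM. Of the 57 members with a mean of at least 20 FPKM, 37 varied by less than 2-fold between the lowest and highest library and 3 by more than 4-fold, namely Hist1h4m, Hist3h2bb-ps and Hist1h3b. These genes are named for their ranges, after their values had been seen.

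**Figure D4:**
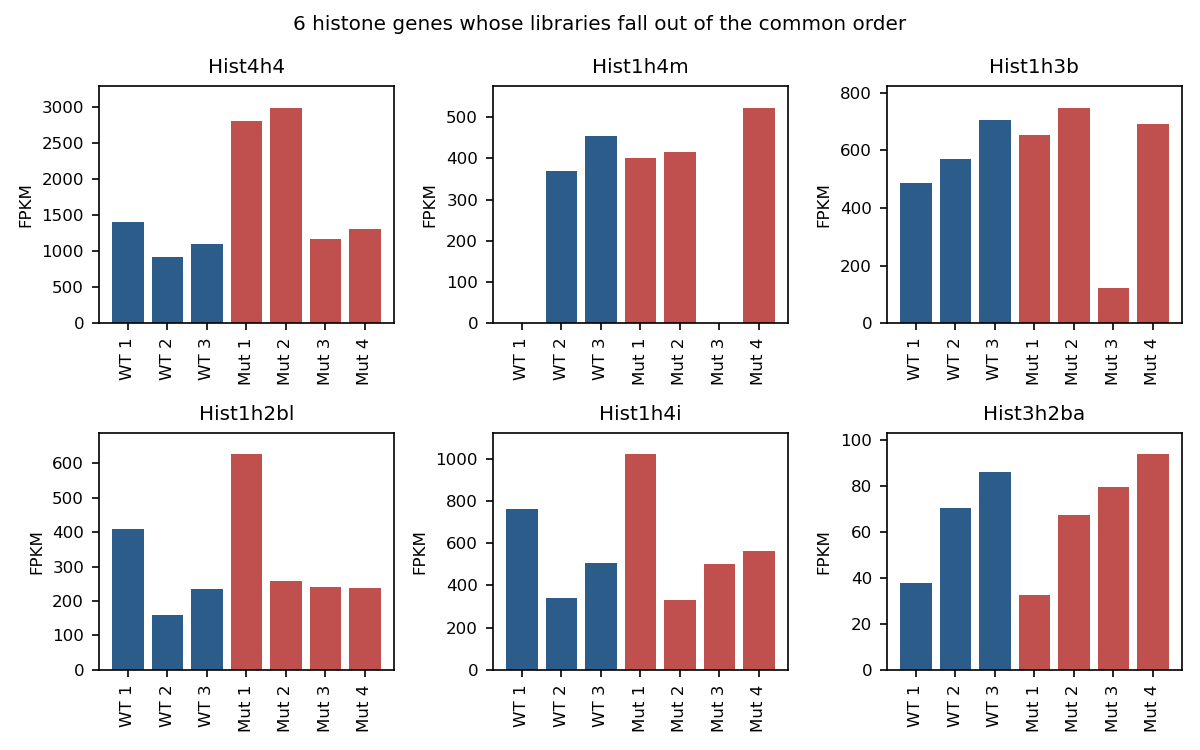
FPKM (y axes, from 0) of Hist4h4, Hist1h4m, Hist1h3b, Hist1h2bl, Hist1h4i and Hist3h2ba in each library, wild-type in blue and mutant in red. Mut 1 and Mut 2 stand out in Hist4h4, WT 1 and Mut 3 are near 0 in Hist1h4m, Mut 3 is low in Hist1h3b, and WT 1 and Mut 1 stand together in the other 3 genes.

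By position, the median log2 fold change was 0.36 in the first block of the Hist1 cluster and 0.35 in the second, 0.35 in the Hist2 cluster and 0.06 over the 3 genes of the Hist3 cluster. These medians were 0.58, 0.57, 0.49 and 0.30 without wild-type replicate 3. By promoter, it was 0.39 in the 14 H2A and H2B genes with the octamer and 0.41 in the 19 without it, and 0.34 in the 35 members with a TATA box and 0.39 in the 24 without. Members in which over 50% of the stretches of read length in the coding sequence are shared with another member had a median of 0.40 (30 members), and those with no shared stretch had a median of 0.25 (13 members). The 13 unshared members were all higher in the mutant. Gene span was looked at after seeing the data. Other genes with a span under 1000 bases (82, without small RNA genes) had a median of 0.11, those of 1000 to 2000 bases 0.08, and those of at least 5000 bases 0.00; the part of gene length in the result was not tested.

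Of 22 genes that make and process histone mRNA, all tested, 4 were higher and 18 lower in the mutant. Their median was −0.08 (−0.09 without wild-type replicate 3). At an unadjusted p under 0.05, 5 were lower, against 8.79% of all genes, and 0 passed an adjusted p of 0.05. Slbp, whose product binds the stem-loop, was at 117, 95.6 and 127 FPKM in wild-type and 105 to 115 FPKM in mutant libraries, with overlap (−0.03 ± 0.10 SE). Npat, the S-phase activator of histone genes, was at 11.7, 12.3 and 12.4 FPKM in wild-type and 10.7 to 11.9 FPKM in mutant libraries, with overlap (−0.11 ± 0.07 SE). Cpsf3, the nuclease that cuts histone pre-mRNA, was at 60.4, 54.0 and 53.0 FPKM in wild-type and 45.2 to 48.1 FPKM in mutant libraries, without overlap (−0.26 ± 0.06 SE, adjusted p = 0.169 in limma). Ncbp1, the large subunit of the nuclear cap-binding complex, was likewise without overlap (−0.22 ± 0.07 SE). Of 16 histone chaperone genes 3 were higher and 13 lower, while 52.1% of all genes tested were higher. Their median was −0.08 (−0.07 without wild-type replicate 3, where 6 of the 16 were higher). At an unadjusted p under 0.05, 3 chaperone genes were lower, against 8.79% of all genes, and 0 higher. Hat1, the acetyltransferase of newly made H4, had the widest difference of these, at 167, 186 and 167 FPKM in wild-type and 135 to 140 FPKM in mutant libraries (−0.34 ± 0.06 SE, adjusted p = 0.133 in limma, or 0.0283 without wild-type replicate 3 and up to 0.582 over all alternatives). The histone chaperone subunit Supt16 had −0.19 ± 0.05 SE.

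Of 11 genes listed as replication-independent variants 8 were higher, with a median of 0.16 (0.24 without wild-type replicate 3). At an unadjusted p under 0.05, 5 were higher and 1 lower, against 8.21% and 8.79% of all genes. H3f3b, encoding H3.3, was at 498, 492 and 502 FPKM in wild-type and 536 to 586 FPKM in mutant libraries, without overlap (0.16 ± 0.07 SE, adjusted p = 0.269 in limma). H2afz, encoding H2A.Z, was at 75.2, 92.3 and 88.7 FPKM in wild-type and 96.0 to 104 FPKM in mutant libraries, without overlap (0.22 ± 0.08 SE). H1f0, the linker histone of resting cells, was at 120.5, 122 and 120.4 FPKM in wild-type and 134.7 to 152.5 FPKM in mutant libraries (0.24 ± 0.06 SE, adjusted p = 0.173 in limma). In H3f3b and H1f0 the library labelled wild-type replicate 3 was level with the other wild-type libraries. H2afy, encoding macroH2A1, was the lower one, at 102 to 108 FPKM in wild-type and 90.6 to 96.7 FPKM in mutant libraries (−0.16 ± 0.05 SE). Without wild-type replicate 3, H2afx, encoding the H2A.X of DNA breaks, was the listed gene that passed an adjusted p of 0.05 in limma (0.49 ± 0.07 SE, adjusted p = 0.011, and up to 0.609 over all alternatives). H2afx followed the library order of the clustered members, at 98.0, 89.7 and 137.6 FPKM in wild-type and 127 to 139 FPKM in mutant libraries. Whether its mRNA ends in the stem-loop is not given here, because the search kept only a count for other protein-coding genes.

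Of 28 S phase and DNA replication genes 16 were higher and 12 lower, with a median of 0.02 (0.07 without wild-type replicate 3). At an unadjusted p under 0.05, 3 were higher and 2 lower, near the 8.21% and 8.79% of all genes. Pcna, the sliding clamp of DNA polymerase, was at 52.3, 64.5 and 70.4 FPKM in wild-type and 60.5 to 69.1 FPKM in mutant libraries, with overlap (0.06 ± 0.10 SE). Pole and Rfc4, of the replication machinery, had −0.27 ± 0.07 SE and −0.23 ± 0.07 SE. The 3 higher ones, named after their values were seen, were Tk1, a thymidine kinase (0.33 ± 0.11 SE), Gins2 of the replicative helicase (0.23 ± 0.10 SE) and Uhrf1, which guides maintenance methylation (0.22 ± 0.08 SE, without overlap). The list's median deviation was 0.02, −0.12 and 0.11 on the log2 scale in wild-type replicates 1 to 3 and between −0.02 and 0.01 in mutant libraries. Of 15 G2 and mitosis genes 9 were lower, with a median of −0.02 with and without wild-type replicate 3. At an unadjusted p under 0.05, 4 were lower and 1 higher, against 8.79% and 8.21% of all genes. The lowest p-values were those of Cenpf (−0.44 ± 0.08 SE) and Bub1 (−0.35 ± 0.08 SE). Both passed in limma without wild-type replicate 3, with −0.53 (adjusted p = 0.00815) and −0.44 (adjusted p = 0.011), and over all alternatives their adjusted p reached up to 0.582.

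Between libraries, some cell type marker lists moved with the histone genes, some against them and some in another order. The 12 germ cell genes listed were all lower in the mutant, with a median of −1.01. Of these, 9 had an unadjusted p under 0.05, against 8.79% of all genes. The list holds Ddx4, Nanos2, Nanos3, Mael, Tdrd1 and Piwil2, which the paper reported as reduced at E14.5. It lacks Boll, Hormad1 and Lefty2, reported as unchanged, and Stra8 and Rec8, reported as raised. The paper found germ cell numbers at E14.5 not different between genotypes. The mean it gave was nevertheless lower in mutant testes, with a wide spread in both genotypes. Its discussion dates the first detected loss of germ cells to E14.5. Without wild-type replicate 3 the median of the 12 listed genes was −1.57. In that fit 10 passed an adjusted p of 0.05 in limma, against 3.99% of all genes. The library left out had been questioned partly through this same list, so that count is not separate evidence. The median deviation of the 12 listed genes was 1.05 and 1.24 in wild-type replicates 1 and 2 and −0.75 to −0.07 in the other 5 libraries. The 2 libraries with the highest levels of these listed genes were thus the 2 with the lowest histone levels. Of 10 Sertoli cell genes 9 were higher, with a median of 0.18 (0.32 without wild-type replicate 3). At an unadjusted p under 0.05, 2 were higher, against 8.21% of all genes. Without wild-type replicate 3, 7 were higher at that threshold, against 10.5% of all genes. In that fit 2 passed an adjusted p of 0.05 in limma, against 1.16% of all genes. The list had deviations of −0.19 and −0.24 in wild-type replicates 1 and 2 and 0.02 to 0.20 in the others. All 8 fetal Leydig cell genes were higher, with a median of 0.44 (0.39 without wild-type replicate 3). At an unadjusted p under 0.05, 6 of the 8 were higher, against 8.21% of all genes, and 0 lower. The groups did not overlap in 3 of the 8, against 7.31% of all genes. The deviations of the Leydig list were −0.51, 0.05 and −0.41 in wild-type replicates 1 to 3. They were 0.12 to 0.27 in mutant libraries, which is not the order of the histone genes. The medians were 0.00 for 8 endothelial genes, 0.06 for 12 rows of 11 erythroid genes, 0.22 for 7 macrophage genes, 0.15 for 8 interstitial and peritubular genes and −0.13 for 4 mesonephric genes. They were 0.05, 0.17, 0.36, 0.16 and −0.16 without wild-type replicate 3. The part of germ cell and other cell content in the histone result was not tested.

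**Figure D5:**
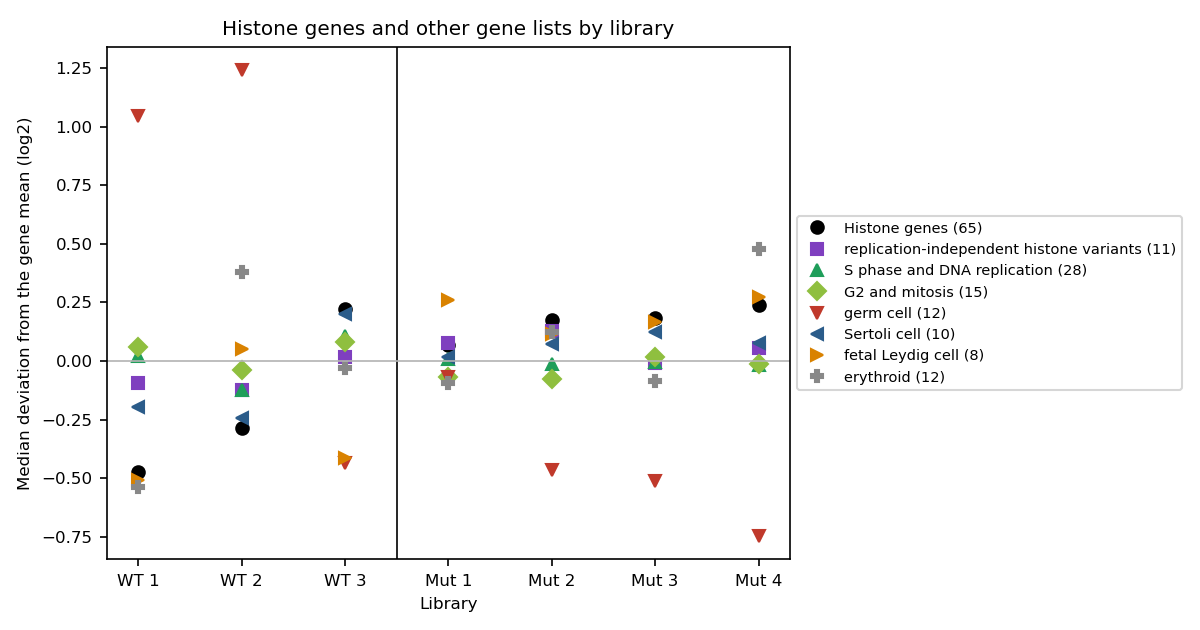
Median deviation of log2(FPKM + 0.5) from each gene's mean over 7 libraries (y axis) for the 65 histone genes tested and 7 gene lists, by library, with the number of rows tested in brackets. Histone genes are low and germ cell genes high in WT 1 and WT 2, and S phase genes stay within 0.13 of 0 in all libraries.

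Reads past the 3′ ends of the genes were available from the table of repeat elements. Within 2000 bases downstream of the members and outside other genes lay 111 LINE, SINE and LTR loci, beside 48 members. Scaled to the total of the repeat table (CPM), they held 129, 195 and 117 in wild-type and 117, 126, 206 and 233 in mutant libraries. Wild-type replicate 2 and mutant replicates 3 and 4 were high, which is not the order of the histone FPKM. Wild-type libraries averaged 147 ± 41.9 (SD, n = 3) and mutant libraries 170.4 ± 57.7 (SD, n = 4), a ratio of 1.16, and the groups overlapped. A large part of the 435 to 922 reads per library lay in an LTRIS3 element past Hist1h2bf (120 to 174 reads) and a B1_Mm element past Hist1h4i (56 to 192 reads). Many other loci held few reads or none, so the sum says little about most members.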

How the data were processed

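RNA-Seq of whole testes at E14.5 (3 WT and 4 Mutant libraries) was used. Reads were aligned by the authors with TopHat (mm10), and FPKM values for RefSeq genes came from Cuffquant and Cuffnorm. The deposited FPKM table was used as given. The submitters' processing notes name TopHat2 2.0.12, Cuffdiff 2.1.1, HTSeq and bedtools. The authors also counted uniquely mapped reads per RepeatMasker element, and these deposited counts, 3454317 to 4670830 reads per library, were only described. Samples were grouped by their labels, and the p-values measure the spread between embryos.

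The 13988 genes whose mean reached 0.5 FPKM were compared on log2(FPKM + 0.5) in limma 3.58.1 and R 4.3.3 (two-sided, eBayes with trend), with Benjamini-Hochberg adjustment over all genes tested and a threshold of 0.05. Fold changes on this scale understate changes of low genes. The fit was tested on simulated data. Single genes were compared by two-sided exact permutation tests over 35 divisions of the 7 libraries (smallest p 0.0286, or 0.0667 without 1 wild-type library). Sums and lists were described without a test. Sequences were read with Python 3.11.15 from GENCODE M21 transcripts, in the 200 bases after the stop codon (a genome sequence was not used here), and from RefSeq promoters; members were matched by Entrez identifier. Shared stretches were windows of read length in a member's coding sequence that another member also holds on either strand.

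The members and lists were chosen with earlier results of these data known. The genes named are the 2 most abundant of each type, members without overlap, the 3 largest rises and falls, all H1 genes, the testis pair, Hist4h4, and from each main list the 2 lowest p-values and Slbp, Npat, H2afz, H3f3b and Pcna. Alternatives were other pseudocounts (0.1 and 1), no filter or a minimum mean of 2 FPKM, quantile normalization, median centring, no trend, array weights, a replicate block, leaving out each library, division by the median FPKM, and windows of 500 and 5000 bases. Replicate numbers were not used to pair samples.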

Additional observations from a re-analysis of the deposited data

Results flagged for a closer look

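In 65 members tested, 4 had a mutant library that stood apart from the other 3 mutant libraries by Dixon's test; chance gives about 1 in 20 groups. Hist1h2bl was at 627 FPKM in mutant replicate 1, against 238.5 to 258 FPKM in the other mutant libraries. Hist1h3b was at 122 FPKM in mutant replicate 3, against 654 to 749 FPKM. Hist1h3h was at 676 FPKM in mutant replicate 4, against 781 to 785 FPKM. The plus-strand row of Hist2h2aa1, 1 of 4 near-identical rows of the Hist2 cluster, was at 0.00181 FPKM in mutant replicate 1, against 1.71 to 2.01 FPKM. Each value rests on 1 embryo, and the cause was not tested.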

How the results depend on the processing

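The median log2 fold change of the members stayed above 0 in the main fit and all 17 alternatives, from 0.20 without wild-type replicate 1 to 0.56 without wild-type replicate 3. The number of members with an adjusted p under 0.05 was 24 without wild-type replicate 3 and 0 in the other 16 alternatives, the replicate block included, so it lay between 0 and 24 with 1 library left out. The number with an unadjusted p under 0.05 was 23, and was 15 without the filter, 15 after quantile normalization, 8 with mutant replicates 1 and 2 both left out, a choice made after seeing the data, and between 9 and 51 with 1 library left out (9 without wild-type replicate 1, 12 without wild-type replicate 2, 51 without wild-type replicate 3 and 15 without mutant replicate 2 or 3). The replicate block gave 21 such members and a median of 0.32. The deviations of same-numbered samples correlated at 0.20, −0.18 and 0.23. These few values cannot show whether same-numbered samples share more than a number. The ratio of summed FPKM over all members lay between 1.15 and 1.46 with 1 library left out and was 1.27 after division by the median FPKM. The ratio of downstream repeat reads was 1.18 and 1.13 with windows of 500 and 5000 bases.

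Of 29 members named, 23 kept their direction in all alternatives. Hist1h2aa turned to −0.094 under the replicate block and lay between −0.37 and 0.44 with 1 library left out. Over the same left-out libraries the range was −0.084 to 0.38 for Hist1h1t, −0.031 to 0.47 for Hist1h2ba, −0.61 to 0.26 for Hist1h3b, −1.78 to 2.88 for Hist1h4m and −0.62 to 0.51 for Hist3h2bb-ps. With mutant replicates 1 and 2 both left out, Hist1h4m was at −0.77 and Hist3h2bb-ps at 0.81. The number of fragments behind an FPKM value is unknown, and near-identical copies limit what single H4, H3 and H2A rows can show. The smallest permutation p of 0.0286 cannot pass an adjustment over many genes.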

Other observations

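The libraries in which Hist4h4 was high, mutant replicates 1 and 2, stood apart from the other 5 libraries in further genes of the same chromosome. This was noticed after Hist4h4 had been examined. Of 13988 genes tested, 33 had both libraries more than 0.5 on the log2 scale above (19) or below (14) all others, and 13 of the 33 lay on chromosome 6, which holds 4.95% of the genes tested. The 13 lay between positions 116633008 and 147087032, among 189 genes tested in that interval, and no other chromosome held more than 5 of the 33. On the high side with Hist4h4 were C1rb, Gprc5a, Hebp1, Plbd1 and Rergl, and on the low side were Rassf4, C1s1, Ncapd2, Tspan11, Smco3, Arntl2 and Mansc4. Hebp1, a heme-binding protein gene, was at 17.1, 15.9 and 14.9 FPKM in wild-type and 46.4, 49.6, 13.7 and 22.4 FPKM in mutant libraries. Smco3, which like Plbd1 lies within 1 Mb of Hist4h4, was at 1.6, 2.19 and 2.52 FPKM in wild-type and 0.246, 0.0506, 2.06 and 2.44 FPKM in mutant libraries. C1rb was high in wild-type replicate 1 as well, at 6.46 FPKM against 20.4 and 20.8 FPKM in mutant replicates 1 and 2 and 0.515 to 0.613 FPKM in the other 4 libraries. These are values of single libraries, and the cause was not tested.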
